A study of Mus musculus with 6 samples.

Results

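Retinoid binding, metabolism and response genes were examined in mouse embryonic stem cells (mESCs) cultured with leukemia inhibitory factor (LIF), with oncostatin M (OSM) or with neither. The group comprised 9 genes chosen by symbol from the 28584 gene symbols of the expression table: the binding proteins Crabp1 and Crabp2, the retinol receptor Stra6, the synthesis enzymes Aldh1a1 and Aldh1a2, the degradation enzyme Cyp26a1, the nuclear receptors Rarb and Rarg, and the response gene Stra8. All 9 symbols were found, once each, in all 6 libraries. LIF and OSM are cytokines of the interleukin-6 family that share the receptor subunit gp130 and activate Stat3, and the study asked whether OSM can take the place of LIF in mESC culture.

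One mESC line, derived from a C57BL/6 x 129S6 blastocyst, was used throughout, so every group is a culture of the same line rather than of separate embryos. Cells had first been grown in LIF medium on mitomycin C-inactivated MEF feeder cells, that is, mouse embryonic fibroblasts that can no longer divide. They were then moved to a serum-containing basic medium and passaged to P10 (10 passages). LIF-ESCs received 1000 U/mL LIF, OSM-ESCs received OSM at 10 ng/mL and no LIF, and -LIF-ESCs received neither cytokine. Poly(A) RNA was sequenced in 2 biological replicates per group, and expression was deposited as TPM, a unit corrected for transcript length and library size, so that levels can be compared between genes.

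Retinoic acid is made from vitamin A in a pair of oxidation steps. Retinol enters the cell, in some tissues through STRA6, is oxidised to retinaldehyde and then, by ALDH1A enzymes, to retinoic acid. CRABP proteins bind retinoic acid in the cytosol, CYP26 enzymes inactivate it, and retinoic acid receptors (RARs), paired with retinoid X receptors on DNA, switch target genes between repression and activation. In mESCs retinoic acid is a classical differentiation signal, and Cyp26a1, Rarb and Stra8 are textbook genes that it induces.

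A direct repeat of the receptor half-site with a spacer of 5 bases (DR5) is the classical element bound by RAR heterodimers, and it was searched for in the RefSeq promoters (GRCm38.p6, 250 bases before to 50 bases after each transcription start). With AGGTCA or AGTTCA or GGGTCA or GGTTCA allowed as a half-site on both strands, 32 of 32851 promoters held a DR5, or 0.0974%. Promoter windows were found for 8 of the 9 genes, the exception being Crabp2, and those of 2 genes, Rarb and Cyp26a1, held the repeat. Repeats with spacers of 1 and 2 bases were in 0.222% and 0.268% of all promoters and in no window of the 9 genes. The matching stretches are shown for these 2 genes. Their levels stood on opposite sides of -LIF-ESCs in OSM-ESCs, as given below, but Rarb was at the low end of detection and Cyp26a1 was not called as changed. Capitals mark the DR5, which lies 53 bases upstream of the RefSeq start in Rarb and 32 bases upstream, read on the opposite strand, in Cyp26a1. The Rarb stretch lies inside the gene as GENCODE draws it and overlaps an exon of Rarb, so this start is an internal one. The TPM of Rarb is for the whole gene and was not split by start.
Rarb, chr14:16575507-16575536, minus strand: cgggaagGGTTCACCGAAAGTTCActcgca
Cyp26a1, chr19:37697648-37697797, plus strand: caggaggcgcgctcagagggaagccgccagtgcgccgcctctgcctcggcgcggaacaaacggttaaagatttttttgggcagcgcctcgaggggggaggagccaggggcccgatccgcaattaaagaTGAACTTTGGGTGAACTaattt
A match describes the letters only, and receptor binding was not measured.

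The libraries were close in depth. Whole reads could be recovered from the TPM steps of each library with the exon lengths of GENCODE M21, and gave 20712941 to 28994418 reads per library over 28405 matched symbols. The stem cell transcript Pou5f1 stood at 540 and 551 TPM in -LIF-ESCs, at 1182 and 1147 TPM in LIF-ESCs and at 1181 and 1190 TPM in OSM-ESCs, whereas Nanog went the other way, from 436 and 431 TPM to between 252 and 291 TPM with a cytokine, and all 8 stem cell markers examined were detected in every library. Markers of other cells differed with the medium. The summed TPM of 9 trophoblast and surface ectoderm markers was 2390 to 2409 in -LIF-ESCs against 61.0 to 77.2 in the other libraries. The summed TPM of 20 fibroblast markers was 145 to 153 without cytokine, 527 to 529 with LIF and 735 to 745 with OSM. Of the 20, 18 were higher in every LIF-ESC and OSM-ESC library than in both -LIF-ESC libraries. Of the 18556 genes tested below, 50.9% were so in LIF-ESCs and 51.5% in OSM-ESCs. Of 8 defining fibroblast markers none was at 0 in any library, with a lowest value of 0.0368 TPM in -LIF-ESCs and 2.26 TPM elsewhere. The part of these other cells in the values below was not tested. In bulk RNA, a change in the number of cells of a type and a change in RNA per cell cannot be told apart.

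Differences were tested with limma on log2(TPM + 1) over the 18556 genes that reached 1 TPM in 2 or more libraries, and a gene was called at an adjusted p under 0.05 with a log2 fold change of at least 1. Of the 9 retinoid genes, 7 entered the test. Rarb and Stra6 stayed below 1 TPM, and Aldh1a1 entered only through its OSM-ESC libraries. Fold changes on this scale understate those of genes near or below 1 TPM. The median log2 fold change of all tested genes was 0.17 when LIF-ESCs, and 0.18 when OSM-ESCs, were set against -LIF-ESCs, and 0.0077 between the cytokine groups, OSM-ESCs minus LIF-ESCs.

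Retinoid genes did not move as one block when the cytokines were present. Rarg, Crabp1, Aldh1a1, Aldh1a2 and Stra8 were higher in LIF-ESCs and in OSM-ESCs than in -LIF-ESCs, whereas Crabp2 was lower in both. Against -LIF-ESCs, 2 genes were called higher in LIF-ESCs (Rarg and Stra8), where 13.3% of all tested genes were called higher, and 3 were called higher in OSM-ESCs (Rarg, Crabp1 and Aldh1a1), where 14.2% were. No retinoid gene was called lower, against 8.09% and 7.86% of all genes. Aldh1a1 passed the filter only through the OSM-ESC libraries, where it is highest, so its place in these counts was in part set by the filter, and without it 2 of 6 genes were called higher with OSM. After rescaling by the median ratio, 10.4% of all genes were called higher and 10.5% lower with LIF, and 10.9% and 10.5% with OSM. The same rescaling left 1 retinoid gene called higher with OSM, in place of 3. With LIF, Rarg and Stra8 stayed past the fold threshold, with lowest log2 fold changes of 1.83 and 1.02 over the alternative settings. By the adjusted p alone, 5 of the 7 were higher and 1 was lower in both comparisons, while 42.2% and 42.9% of all genes were higher and 25.9% and 25.4% lower. The median log2 fold change of the 7 was 0.85 with LIF and 0.96 with OSM (0.86 and 0.89 without Aldh1a1), beside the all-gene medians given above. Counted by library over all 9 genes, 6 were above both -LIF-ESC libraries in either cytokine (50.9% of tested genes for LIF-ESCs and 51.5% for OSM-ESCs), and 2 were below (33.4% and 32.4%), namely Crabp2 with Stra6 in LIF-ESCs and Crabp2 with Cyp26a1 in OSM-ESCs. Both comparisons use the same -LIF-ESC libraries, so they are not independent of each other.

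**Figure D1:**
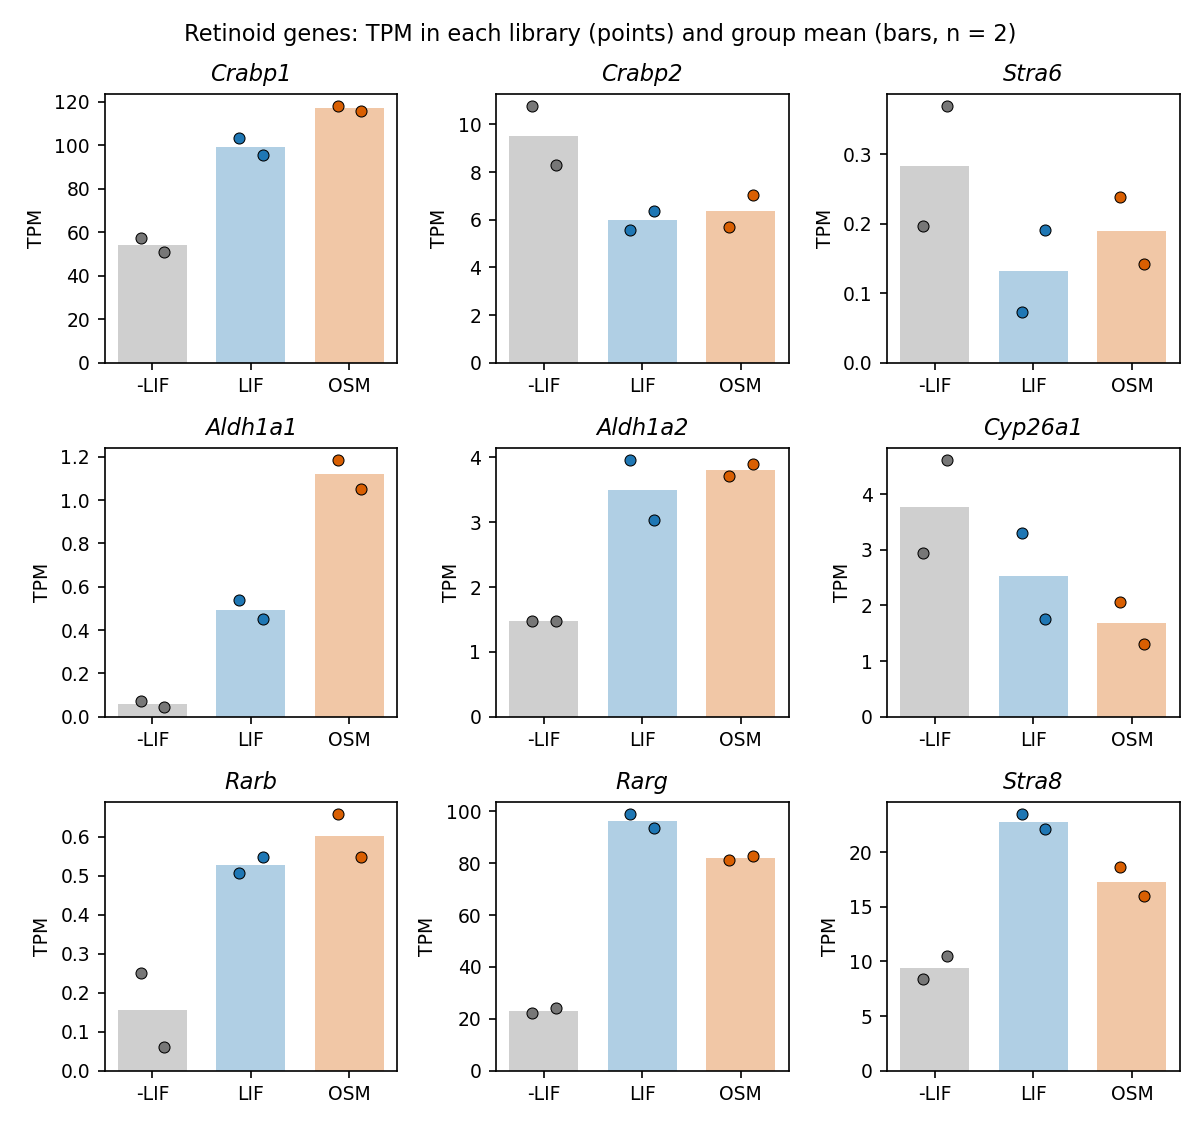
TPM of the 9 retinoid genes in -LIF-ESCs, LIF-ESCs and OSM-ESCs, with a linear axis from 0 for each gene. Points are the 2 libraries of each group and bars are group means, and both LIF-ESC and OSM-ESC libraries lie above both -LIF-ESC libraries for Crabp1, Aldh1a1, Aldh1a2, Rarb, Rarg and Stra8 and below both for Crabp2.

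Among the nuclear receptor genes that entered the test, Rarg, which encodes RARγ, a RAR subtype long studied in early embryonic cells, showed the widest log2 fold change. Rarg (chr15:102234938-102257517 in GRCm38, minus strand) was at 22.2 and 24.0 TPM in -LIF-ESCs, 98.8 and 93.4 TPM in LIF-ESCs and 81.4 and 82.8 TPM in OSM-ESCs. The 3 groups did not overlap, with LIF-ESCs highest and -LIF-ESCs lowest. The group means were 23.1 ± 1.25, 96.1 ± 3.83 and 82.1 ± 0.993 TPM (SD, n = 2), so that the mean was 4.16 times that of -LIF-ESCs with LIF and 3.55 times with OSM. This was a log2 fold change of 2.01 (SE 0.053, adjusted p = 7.7e-06) with LIF and 1.79 (SE 0.053, adjusted p = 9.6e-06) with OSM. Between 951 and 4277 reads per library stood behind these values.

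Rara, the RAR gene with broad expression in most tissues, did not follow Rarg. It was at 28.9 and 27.4 TPM in -LIF-ESCs, 27.8 and 28.6 TPM in LIF-ESCs and 27.0 and 26.4 TPM in OSM-ESCs. Against -LIF-ESCs the log2 fold change of Rara was 0.003 with LIF (adjusted p = 0.96) and -0.071 with OSM (adjusted p = 0.236), but it became -0.18 (adjusted p = 0.0155) and -0.27 (adjusted p = 0.00364) when libraries were rescaled by the median ratio over all genes. Rarg therefore made up 43.3% and 46.6% of the summed RAR transcripts without cytokine, 77.7% and 76.2% with LIF and 74.6% and 75.4% with OSM. The sum over the 3 RAR genes was 51.3 and 51.5 TPM in -LIF-ESCs, 127 and 123 TPM in LIF-ESCs and 109 and 110 TPM in OSM-ESCs.

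Rarb encodes RARβ, the receptor whose own promoter carries the best-known DR5. Rarb (chr14:16430839-16819156, minus strand) was at the low end of detection, with 0.252 and 0.0612 TPM in -LIF-ESCs, 0.506 and 0.547 TPM in LIF-ESCs and 0.658 and 0.548 TPM in OSM-ESCs. These values rest on 15 and 3 reads, 25 and 26 reads, and 35 and 35 reads. Every LIF-ESC and OSM-ESC library was above both -LIF-ESC libraries, while LIF-ESCs and OSM-ESCs were set apart by less than 0.01 TPM at their nearest libraries. The mean was 3.37 times that of -LIF-ESCs in LIF-ESCs (95% counting interval 1.97 to 5.76) and 3.85 times in OSM-ESCs (2.30 to 6.47), where the intervals cover counting error only. Fitted without the filter on low values, the log2 fold changes of Rarb were 0.41 (adjusted p = 0.0419) and 0.48 (adjusted p = 0.0245). GENCODE gives Rarb 5265 exon bases, of which 1793 are shared with Top2b and 227 with Gm48162 on the opposite strand, and no strand setting is given in the sources used here, so the reads of Rarb are uncertain.

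Crabp1 and Crabp2, which encode the cytosolic retinoic acid binding proteins, moved in opposite directions. CRABP1 is known as a cytosolic binder associated with retinoic acid breakdown and CRABP2 as a carrier that hands retinoic acid to RARs. Crabp1 (chr9:54764748-54773110, plus strand) was at 57.6 and 50.8 TPM in -LIF-ESCs, 103 and 95.4 TPM in LIF-ESCs and 118 and 116 TPM in OSM-ESCs. The 3 groups did not overlap, and OSM-ESCs were highest. Against -LIF-ESCs, Crabp1 changed by a log2 fold of 0.86 with LIF (SE 0.072, adjusted p = 0.00025) and 1.10 with OSM (SE 0.072, adjusted p = 0.0001). After rescaling by the median ratio the OSM-ESC value was 0.90, below the fold threshold. Crabp1 had the highest mean of the 9 genes in each group, 54.2 ± 4.82, 99.3 ± 5.58 and 117 ± 1.36 TPM (SD, n = 2), although in LIF-ESCs its libraries and those of Rarg overlapped.

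Crabp2 (chr3:87948666-87953376, plus strand) was at 10.8 and 8.29 TPM in -LIF-ESCs, 5.56 and 6.37 TPM in LIF-ESCs and 5.69 and 7.05 TPM in OSM-ESCs. Both -LIF-ESC libraries were above the other 4, and LIF-ESCs and OSM-ESCs overlapped. Its log2 fold change was -0.59 with LIF (SE 0.16, adjusted p = 0.0192) and -0.51 with OSM (SE 0.16, adjusted p = 0.031). The decrease lost its adjusted p without -LIF-ESCs replicate 1 (0.0888 and 0.138), without LIF-ESCs replicate 1 (0.0925) and without OSM-ESCs replicate 1 (0.146). Crabp1 accounted for 84.3% and 86.0% of the summed CRABP transcripts without cytokine, 94.9% and 93.7% with LIF and 95.4% and 94.3% with OSM.

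**Figure D2:**
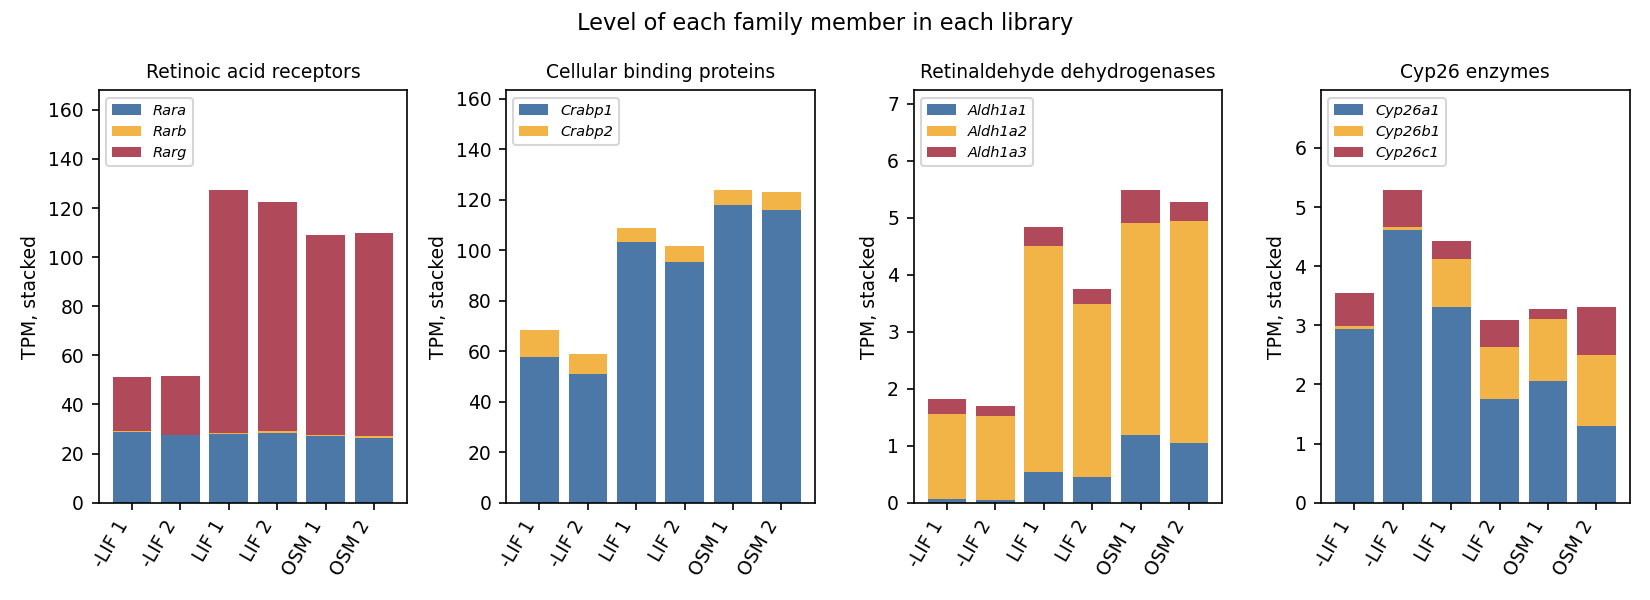
Stacked TPM of the retinoic acid receptor genes, the cellular retinoic acid binding protein genes, the retinaldehyde dehydrogenase genes and the Cyp26 genes in each of the 6 libraries. The Rarg segment widens from 22.2 and 24.0 TPM in -LIF-ESCs to between 81.4 and 98.8 TPM in the other libraries above a Rara segment of 26.4 to 28.9 TPM.

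The retinaldehyde dehydrogenases Aldh1a1 and Aldh1a2, which make retinoic acid from retinaldehyde, were both higher with either cytokine, at low levels. Aldh1a2, the main synthesis enzyme of the early embryo (chr9:71215789-71296243, plus strand), was at 1.48 and 1.47 TPM in -LIF-ESCs, 3.95 and 3.04 TPM in LIF-ESCs and 3.72 and 3.90 TPM in OSM-ESCs. The -LIF-ESC libraries were lowest and the other groups overlapped. Aldh1a2 rose by a log2 fold of 0.85 with LIF (SE 0.13, adjusted p = 0.0024) and 0.96 with OSM (SE 0.13, adjusted p = 0.0015), under the fold threshold in both. With limma-voom on the recovered reads it was past the threshold, at 1.09 (adjusted p = 0.00135) and 1.22 (adjusted p = 0.00028), as it was with a pseudocount of 0.1 (1.18 and 1.31) and, for LIF, without LIF-ESCs replicate 2 (1.00).

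Aldh1a1, the family member prominent in many adult tissues (chr19:20492715-20643465, plus strand), was at 0.0716 and 0.0436 TPM in -LIF-ESCs, 0.540 and 0.449 TPM in LIF-ESCs and 1.18 and 1.05 TPM in OSM-ESCs. The reads numbered 4 and 2, 25 and 20, and 59 and 63, and the 3 groups did not overlap. The mean of Aldh1a1 was 8.59 times that of -LIF-ESCs in LIF-ESCs (95% counting interval 3.67 to 20.1) and 19.4 times in OSM-ESCs (8.56 to 44.1). On the log2(TPM + 1) scale the change was 0.50 with LIF (SE 0.15, adjusted p = 0.0327) and 1.00 with OSM (SE 0.15, adjusted p = 0.0025). The first of these lost its adjusted p when any 1 of the 4 libraries compared was left out, at log2 fold changes of 0.45 to 0.54. The second fell under the fold threshold when libraries were rescaled (0.95). It also fell under this threshold without OSM-ESCs replicate 1 and without -LIF-ESCs replicate 2. The third family member, Aldh1a3, was between 0.186 and 0.579 TPM in all libraries. Aldh1a2 supplied most of the summed transcripts of the 3 genes, from 67.8% in OSM-ESCs replicate 1 to 86.5% in -LIF-ESCs replicate 2.

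Cyp26a1 encodes the enzyme that oxidises retinoic acid for disposal and is itself induced by it. Cyp26a1 (chr19:37697798-37701536, plus strand) was at 2.94 and 4.61 TPM in -LIF-ESCs, 3.31 and 1.75 TPM in LIF-ESCs and 2.07 and 1.30 TPM in OSM-ESCs. Both OSM-ESC libraries were below both -LIF-ESC libraries, while LIF-ESCs overlapped with both groups. Cyp26a1 had a log2 fold change of -0.45 with LIF (SE 0.30, adjusted p = 0.23) and -0.82 with OSM (SE 0.30, adjusted p = 0.0537). The LIF value rested on single libraries, running from -0.13 without LIF-ESCs replicate 2 and -0.19 without -LIF-ESCs replicate 2 to -0.70 without -LIF-ESCs replicate 1 and -0.77 without LIF-ESCs replicate 1. With limma-voom on the recovered reads the values were -0.70 (adjusted p = 0.0448) and -1.30 (adjusted p = 0.0011). By limma the OSM value also had an adjusted p under 0.05 with median-ratio rescaling (-0.97, adjusted p = 0.0321). The same held when only the groups compared were fitted (-0.82, adjusted p = 0.0407). The side of the threshold thus depended on the model. Cyp26b1, a second enzyme of the same family, was at 0.0495 and 0.0602 TPM in -LIF-ESCs, 0.817 and 0.891 TPM in LIF-ESCs and 1.04 and 1.20 TPM in OSM-ESCs. Cyp26a1 made up 82.9% and 87.2% of the summed Cyp26 transcripts without cytokine, 74.7% and 56.7% with LIF and 63.1% and 39.4% with OSM. The 2 genes with a DR5 in their promoter windows thus stood on opposite sides of -LIF-ESCs in OSM-ESCs, with Rarb higher and Cyp26a1 lower in both libraries, although Rarb was under the filter and Cyp26a1 was not called.

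Stra6 encodes the membrane receptor that takes up retinol from its plasma carrier. Stra6 (chr9:58063788-58153996, plus strand) was at 0.197 and 0.369 TPM in -LIF-ESCs, 0.0731 and 0.190 TPM in LIF-ESCs and 0.238 and 0.141 TPM in OSM-ESCs, from 4 to 20 reads per library. Both LIF-ESC libraries were below the -LIF-ESC libraries, by a margin of less than 0.01 TPM at the nearest pair, and OSM-ESCs overlapped with both groups. Fitted without the filter, the adjusted p was 0.274 with LIF and 0.493 with OSM, and a difference was not detectable at this depth.

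Stra8, which encodes a factor required for germ cells to enter meiosis and was named for its stimulation by retinoic acid, was clearly transcribed in all media. Stra8 (chr6:34920163-34939344, plus strand) was at 8.38 and 10.5 TPM in -LIF-ESCs, 23.5 and 22.1 TPM in LIF-ESCs and 18.6 and 16.0 TPM in OSM-ESCs. The 3 groups did not overlap, with LIF-ESCs highest. Mean levels were 9.43 ± 1.49, 22.8 ± 0.945 and 17.3 ± 1.84 TPM (SD, n = 2). Stra8 rose by a log2 fold of 1.20 with LIF (SE 0.12, adjusted p = 0.00052) and 0.81 with OSM (SE 0.12, adjusted p = 0.0022), the latter under the fold threshold.

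**Figure D3:**
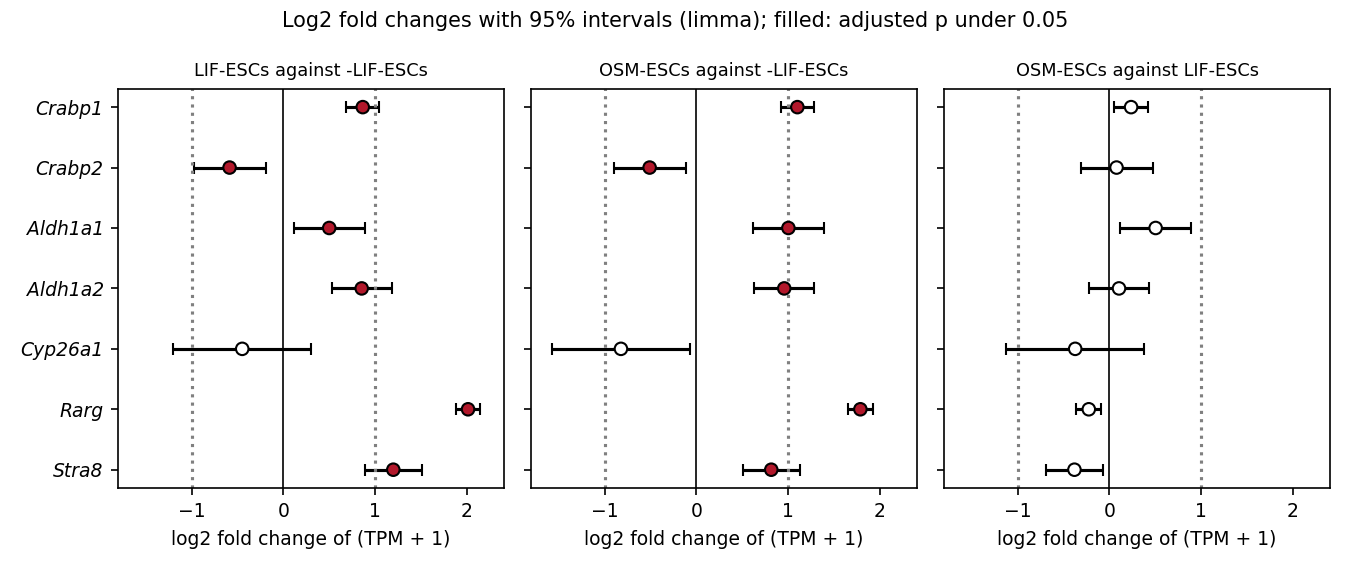
Log2 fold changes of (TPM + 1) with 95% intervals from limma for the 7 retinoid genes that entered the test, in the 3 comparisons, with filled points for an adjusted p under 0.05. Rarg lies farthest to the right against -LIF-ESCs, Crabp2 lies left of 0 in both of these comparisons, and no point is filled for OSM-ESCs against LIF-ESCs.

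OSM-ESCs and LIF-ESCs were then compared directly, since this asks whether the cytokines leave the same retinoid transcripts. No retinoid gene was called, where 0.0323% of all tested genes were called higher in OSM-ESCs and 0.0485% lower. At an unadjusted p under 0.05, 4 of the 7 passed (3 of 6 without Aldh1a1, which the filter favours here), where 15.3% of all genes did: Crabp1 and Aldh1a1 were above, and Rarg and Stra8 below, their LIF-ESC values, and for these 4 the libraries of the groups did not overlap. Over all 9 genes, 3 had both OSM-ESC libraries above LIF-ESCs (Rarb being the third), where 26.3% of tested genes did, and 2 had both below, where 20.9% did. The log2 differences of OSM-ESCs against LIF-ESCs were 0.24 for Crabp1 (SE 0.072, adjusted p = 0.234), 0.50 for Aldh1a1 (SE 0.15, adjusted p = 0.234), -0.23 for Rarg (SE 0.053, adjusted p = 0.161) and -0.38 for Stra8 (SE 0.12, adjusted p = 0.248). With limma-voom on the recovered reads, the adjusted p of these 4 genes was 0.0369, 0.0266, 0.00094 and 0.0167, and Aldh1a1, at 1.15, was also past the fold threshold. The mean TPM of Aldh1a1 was 2.26 times higher in OSM-ESCs, with a 95% counting interval of 1.61 to 3.18.

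For the other 3 tested genes no difference between OSM-ESCs and LIF-ESCs was detected, and the intervals show what sizes remain possible. The 95% interval of the log2 difference ran from -0.32 to 0.47 for Crabp2, from -0.22 to 0.43 for Aldh1a2 and from -1.12 to 0.38 for Cyp26a1. Fibroblast markers also differed between these groups, with a median ratio of 1.37. Of the 20 markers, 19 were above both LIF-ESC libraries in each OSM-ESC library, where 26.3% of all tested genes were. The part of the fibroblast markers in the differences of Crabp1, Aldh1a1, Rarg and Stra8 was not tested.

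Genes with the closest pattern over the 6 libraries were sought for the 4 retinoid genes whose group means spanned at least 1 on the log2 scale, by the distance between log2(TPM + 1) profiles after centring each gene. The closest to Crabp1 was the zinc finger gene Zfp428 at a distance of 0.02, with 49.6 and 43.6 TPM in -LIF-ESCs, 88.4 and 81.9 TPM in LIF-ESCs and 100 and 101 TPM in OSM-ESCs. For Rarg it was Apoe, encoding the lipid carrier apolipoprotein E, at a distance of 0.0885, with 283 and 282, 1144 and 1102, and 953 and 999 TPM in the same order. Lpp and Vim, which encode a focal adhesion protein and the intermediate filament vimentin, were nearest to Aldh1a1 at 0.106 and 0.109. Vim was at 139 and 135 TPM in -LIF-ESCs, 192 and 194 TPM in LIF-ESCs and 266 and 267 TPM in OSM-ESCs. The patterns nearest to Stra8 were looser, with 2310015A10Rik at 0.156 and Snord70 at 0.162.

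The wider retinoid pathway was examined with a list of 53 further genes, of which 44 were in the table and 31 entered the test. With LIF 5 were called higher and 8 lower than without cytokine, and with OSM 6 and 7, which is to be read against 13.3% and 8.09% of all genes with LIF and 14.2% and 7.86% with OSM. Rbp4 and Rbp7, counted as lower, passed the filter only through -LIF-ESCs, and Cyp26b1, counted as higher with OSM, only through OSM-ESCs. The median log2 fold change over the 31 genes was 0.20 with LIF and 0.11 with OSM. Genes named in the next paragraphs beyond the 3 highest and 3 lowest of the list were picked after their values were seen, to name what the counts by role contain.

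Carriers and binding proteins were lower with either cytokine in 3 of 4 cases by the call. Of 4 tested genes in this role, Fabp5, Rbp7 and Rbp4 were called lower in both comparisons and none higher. Over all tested genes, 8.09% were called lower with LIF and 7.86% with OSM. Rbp7 and Rbp4 reached 1 TPM in 2 libraries only through -LIF-ESCs, where they are highest, so their calls were in part set by the filter. Fabp5, a fatty acid binding protein that can also bind retinoic acid, was at 24.0 and 22.3 TPM in -LIF-ESCs, 4.78 and 5.19 TPM in LIF-ESCs and 5.33 and 5.62 TPM in OSM-ESCs, which is -2.01 and -1.90 as log2 fold change (adjusted p = 1.9e-05 and 2.1e-05). Rbp4, the plasma carrier of retinol, was at 4.15 and 4.47, 0.411 and 0.684, and 0.763 and 0.763 TPM in the same order. Rbp7, a cellular retinol binding protein, had a log2 fold change of -1.94 with LIF (adjusted p = 0.0023) and -2.12 with OSM (adjusted p = 0.0016). All of the -LIF-ESC libraries were above all others for these genes.

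Enzymes that handle retinol and retinaldehyde moved in both directions, and most of those for oxidation were under the filter. Of 19 genes for oxidation and synthesis, 5 were tested and Rdh10, which oxidises retinol to retinaldehyde, was called lower in both comparisons, from 12.4 and 10.4 TPM without cytokine to 3.10 and 4.02 TPM in LIF-ESCs and 4.85 and 3.88 TPM in OSM-ESCs. Of 7 tested genes for reduction, storage and release, Dhrs3, which reduces retinaldehyde back to retinol, and the lipoprotein lipase gene Lpl were called lower in both comparisons. Dhrs3 was at 5.10 and 4.85 TPM in -LIF-ESCs, 1.13 and 1.48 TPM in LIF-ESCs and 1.39 and 1.83 TPM in OSM-ESCs. Rdh11, a retinaldehyde reductase, was called lower in LIF-ESCs with a log2 fold change of -1.04 and was at -0.95 in OSM-ESCs. At its weakest over the alternative settings the LIF value of Rdh11 was -0.97, short of the fold threshold. These calls stand beside 8.09% (LIF) and 7.86% (OSM) of all tested genes called lower. The log2 fold change of Lpl was -1.86 and -1.65 (adjusted p = 9.5e-05 and 0.00014). Under the fold threshold but with an adjusted p under 0.05, Dgat1, an acyltransferase gene, rose by 0.57 and 0.52 (log2), the reductase gene Dhrs4 by 0.52 and 0.64 and the dehydrogenase gene Dhrs9 by 0.73 and 0.98. Dhrs9 was at 0.103 and 0 TPM in -LIF-ESCs, 0.896 and 0.596 TPM in LIF-ESCs and 1.13 and 1.00 TPM in OSM-ESCs, and so entered the test only through the last group.

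Among degradation enzymes and other cytochromes P450, Cyp1b1, which can oxidise retinoids as well as steroids, was called higher and Cyp2s1 lower in both comparisons, and Cyp26b1 was called higher in OSM-ESCs, the only group through which it passed the filter. The log2 fold change of Cyp26b1 with OSM was 1.00, and its lowest value over the alternative settings was 0.95, under the fold threshold. Cyp1b1 was at 3.39 and 3.86 TPM in -LIF-ESCs, 13.0 and 12.5 TPM in LIF-ESCs and 17.9 and 16.8 TPM in OSM-ESCs. Of the 4 other nuclear receptors tested none was called in either comparison, although 3 in each had an unadjusted p under 0.05 by limma (71% and 71.1% of all genes did), and limma-voom called none. Among 8 coregulators 4 were called higher in both comparisons and none lower, where 13.3% and 14.2% of all tested genes were called higher. The 4 were Ncoa1 and Ncoa3, coactivators of nuclear receptors, the histone methyltransferase gene Nsd1 and the zinc finger cofactor gene Zfp423. The lowest log2 fold changes of Nsd1 over the alternative settings were 0.95 with LIF and 0.99 with OSM, under the fold threshold. Ncoa3 was at 34.2 and 33.0 TPM in -LIF-ESCs, 88.3 and 89.2 TPM in LIF-ESCs and 85.6 and 81.8 TPM in OSM-ESCs, and the log2 fold change of Ncoa1 was 1.35 and 1.28 (adjusted p = 0.00012 and 0.00014). Between OSM-ESCs and LIF-ESCs limma called no gene of the pathway list, and 3 of the 31 had an unadjusted p under 0.05, where 15.3% of all genes did.

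**Figure D4:**
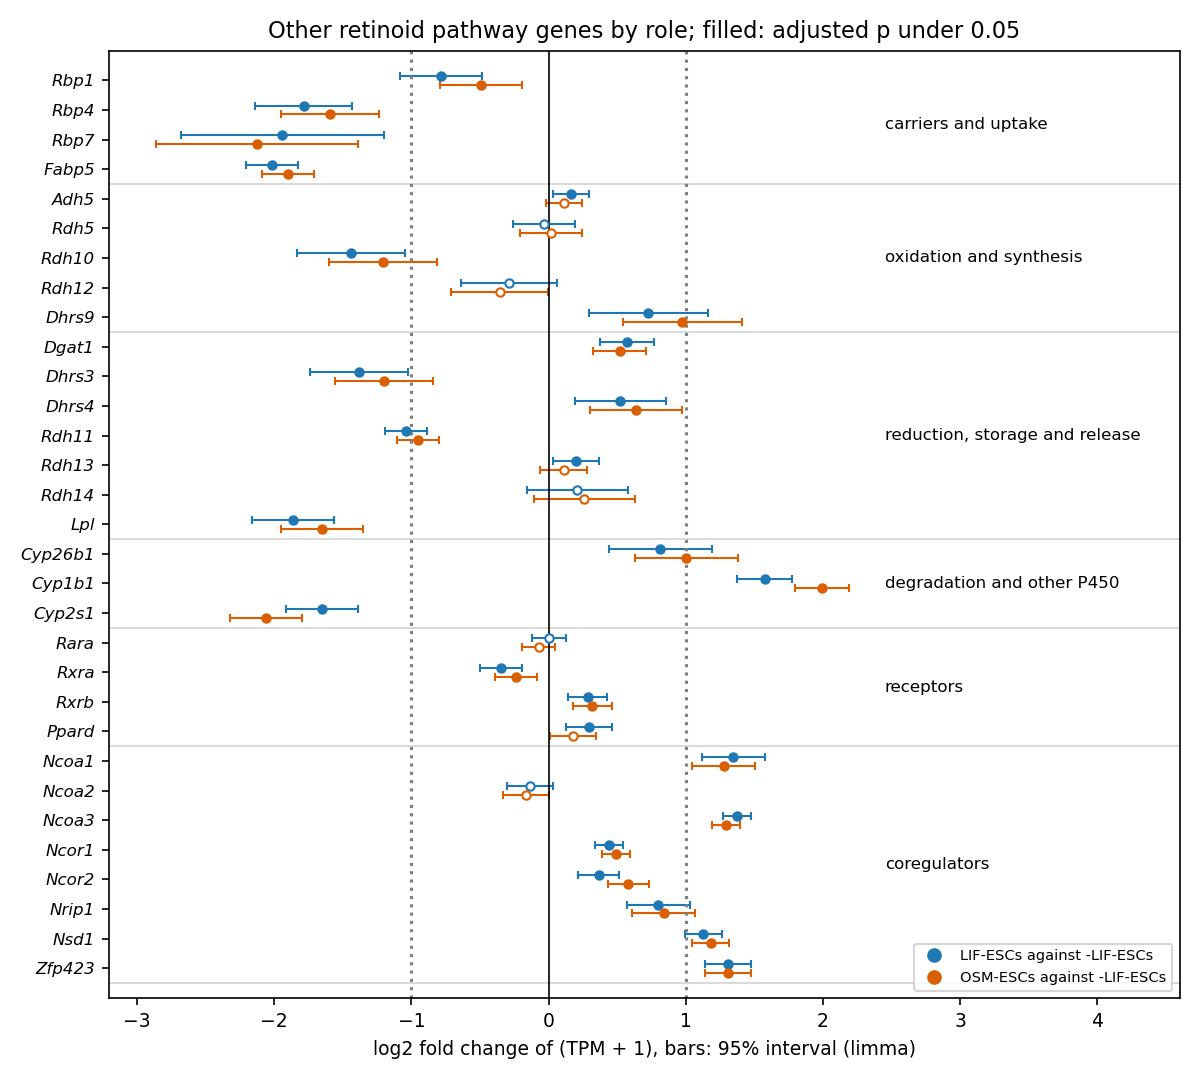
Log2 fold changes of (TPM + 1) of the 31 tested genes of the wider retinoid pathway, ordered by role, for LIF-ESCs (blue) and OSM-ESCs (orange) against -LIF-ESCs, with 95% intervals and filled points for an adjusted p under 0.05. The carriers lie left of 0 and 4 of the 8 coregulators lie right of the dotted line at 1.

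Genes known to respond to retinoic acid did not share a direction. A list of 35 such genes, 34 of them in the table, had 24 tested members, of which 8 rose and 6 fell by the call with LIF, and 9 rose and 6 fell with OSM, relative to -LIF-ESCs. Over all genes the shares were 13.3% and 8.09% with LIF and 14.2% and 7.86% with OSM. The median log2 fold change was 0.49 and 0.69. The filter favoured calls of genes that reached 1 TPM only where they were higher, as Cdx2 did in -LIF-ESCs. Olig2, Hoxa5, Pax6 and Gata6, all called higher in both comparisons, did so in LIF-ESCs and OSM-ESCs. The counts of genes that rose were thus in part set by the filter. Hoxa5, Pax6 and Gata6 are named here after their values were seen. Olig2, a bHLH factor of ventral neural progenitors, had 1 read in each -LIF-ESC library and stood at 19.6 and 19.5 TPM in LIF-ESCs and 23.7 and 21.0 TPM in OSM-ESCs, a ratio to -LIF-ESCs of 487 (95% counting interval 122 to 1952) and 557 (139 to 2230). Gbx2, a homeobox gene of the anterior hindbrain that is also known as a LIF/Stat3 target in mESCs, rose from 4.06 and 2.86 TPM to 47.3 and 47.8 TPM in LIF-ESCs and to 54.8 and 55.0 TPM in OSM-ESCs (adjusted p = 1.8e-05 and 1.5e-05).

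The caudal homeobox genes Cdx1 and Cdx2, both classical retinoic acid targets, moved in opposite directions. Cdx1 was at 2.47 and 2.39 TPM in -LIF-ESCs, 9.32 and 10.6 TPM in LIF-ESCs and 13.0 and 12.9 TPM in OSM-ESCs, with log2 fold changes of 1.67 and 2.02 (adjusted p = 4.1e-05 and 2.3e-05). Cdx2, which also marks trophectoderm, was at 4.57 and 3.66 TPM in -LIF-ESCs, 0.236 and 0.049 TPM in LIF-ESCs and 0.657 and 0.693 TPM in OSM-ESCs, with log2 fold changes of -2.16 and -1.61 (adjusted p = 0.00017 and 0.00051). The fall of Cdx2 stood beside the lower sum of trophoblast and surface ectoderm markers given above, whose part in it was not tested. The transcriptional repressor gene Bhlhe40 fell from 70.7 and 70.0 TPM to 21.3 and 18.5 TPM in LIF-ESCs and 16.4 and 16.2 TPM in OSM-ESCs.

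Between OSM-ESCs and LIF-ESCs limma called none of the 24 retinoic acid target genes. At an unadjusted p under 0.05, 8 were higher and 3 lower, where 15.3% of all genes passed in either direction. By the adjusted p alone, where 0.463% of all genes were higher and 0.129% lower, 1 passed, Zfp703, a zinc finger gene induced by retinoic acid, with 8.52 and 8.99 TPM in LIF-ESCs and 13.9 and 13.3 TPM in OSM-ESCs, named after its values were seen. Its log2 difference was 0.59 (SE 0.064, adjusted p = 0.0455), and the adjusted p was over 0.05 when any 1 library was left out (0.123 to 0.25).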

How the data were processed

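TPM values for 6 poly(A) RNA-seq libraries, 2 each of -LIF-ESCs, LIF-ESCs and OSM-ESCs, were used as deposited. The authors trimmed, aligned and counted the reads, with Trimmomatic, HISAT2, featureCounts and mm10 named in the submitters' processing notes. The annotation, strand setting, treatment of multi-mapped reads and the step from counts to TPM are not given in the sources used here. The extraction text of the labels names another tissue, whereas all other labels name embryonic stem cells. TPM sums were 999949 to 999966 per library. Reads were recovered from the TPM steps with GENCODE M21 exon lengths (28405 of 28584 symbols matched once). For Cyp26a1, Cyp1b1, Rbp4 and Olig2 the values came out whole at other lengths (1774, 5128, 1298 and 2437 bases in place of 1983, 5840, 1343 and 2530), which were used for printed reads and counting intervals, while limma-voom used the GENCODE length. Between 95.3% and 95.5% of values came out whole within 0.02 of a read, and intervals from them cover counting error only.

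limma 3.58.1 in R 4.3.3 fitted log2(TPM + 1) with an intensity trend to genes that reached 1 TPM in 2 or more libraries, with 3 residual degrees of freedom and Benjamini-Hochberg adjustment over all 18556 genes. An exact permutation test of 2 against 2 libraries cannot go below 0.333. p-values measure the spread between these libraries, as all came from one line. Replicates differed by more than counting noise (mean chi-square 1.99 to 3.34 per gene). Same-numbered replicates did not deviate together across groups (r = -0.04 to 0.03), so numbers were not used as pairs. The fits were tested on simulated data.

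The members and gene lists were chosen with earlier results of these data known. Named genes were the 9 members, the 3 highest and 3 lowest called genes of the pathway and target lists in LIF-ESCs against -LIF-ESCs, and the 2 nearest genes of each member spanning at least 1. One gene that this rule names is not reported here. Marker lists covered stem cells, fibroblasts, endoderm, primed epiblast, trophoblast and surface ectoderm, neural cells and germ line. Alternatives were a pseudocount of 0.1, no filter, a filter of 5 TPM, no trend, the replicate block, only the groups compared, median-ratio rescaling, limma-voom on recovered reads, removal of 37 mitochondrial genes, the adjusted p alone, and each library left out. Promoters came from RefSeq (GRCm38.p6). Python 3.11.15, pandas 2.3.3 and matplotlib 3.10.9 were used.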

Additional observations from a re-analysis of the deposited data

How the results depend on the processing

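Of 288 recomputed counts of called genes, 270 stayed within 1.5 times the value given. By the adjusted p alone, 5 of 7 members were higher with LIF and 5 with OSM than without cytokine, and 1 was lower in each. Of 31 pathway genes 16 and 13 were higher, and of 24 target genes 15 and 15. Over all tested genes, 42.2% were higher with LIF and 42.9% with OSM, and 25.9% and 25.4% were lower. With OSM against LIF, 1 target gene was higher, as were 0.463% of all tested genes. A filter of 5 TPM left 5 and 4 pathway genes lower and 4 and 4 target genes higher. That filter left 13315 genes, of which 996 and 975 were called lower and 1939 and 2028 higher. A pseudocount of 0.1 gave 4 members higher in LIF-ESCs, where 3179 of 18556 genes were. Median-ratio rescaling left 1 member higher in OSM-ESCs, where 10.9% of all genes were. limma-voom on recovered reads gave 4 members higher in LIF-ESCs, 1 lower in OSM-ESCs (Cyp26a1) and 1 higher with OSM than with LIF (Aldh1a1). Of 18431 genes, limma-voom called 2681, 2334 and 22 in the same order. The cause of these shifts was not tested.

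Leaving out each library gave 2 to 3 members higher in LIF-ESCs and 2 to 3 in OSM-ESCs, with the lone sample assumed to vary like the other groups. The log2 difference of OSM-ESCs against LIF-ESCs then ran from -0.056 to 0.21 for Crabp2, from -0.044 to 0.25 for Aldh1a2 and from -0.51 to 0.14 for Rbp7, so none of the 3 has a settled direction. Rara in LIF-ESCs against -LIF-ESCs ran from -0.033 to 0.039, and reached -0.18 with rescaling and -0.13 with limma-voom. Ddx4 in OSM-ESCs ran from -0.014 to 0.27 in the same way, and was -0.068 with rescaling and -0.012 with limma-voom. Cubn, called lower with OSM than with LIF, had an adjusted p over 0.05 without any 1 library (0.123 to 0.273). With LIF, the adjusted p of Dhrs9 was over 0.05 without LIF-ESCs replicate 1 (0.0621), that of Dhrs4 with rescaling (0.0811) and without -LIF-ESCs replicate 1 or either LIF-ESC library (0.0624 to 0.0863), and that of Ddx4 with rescaling (0.116) and without any 1 library compared (0.0702 to 0.0871). With OSM, that of Sycp3 was over 0.05 with rescaling (0.0606) and without -LIF-ESCs replicate 1 (0.0675).

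With the replicate block every count of called members was as given, and the all-gene calls were 2478 higher and 1504 lower with LIF and 2640 and 1457 with OSM, against 2470, 1502, 2630 and 1459 without it, while OSM-ESCs against LIF-ESCs had 0 calls in place of 15. The adjusted p under the block was 0.0537 for Aldh1a1 in LIF-ESCs and 0.0543 for Crabp2 in OSM-ESCs, both against -LIF-ESCs. Depth limits Rarb, Stra6 and Aldh1a1, which had under 65 reads in every library.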

Other observations

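Most germ line markers were lower where Stra8 was higher. Over all tested genes, 8.09% were called lower with LIF and 7.86% with OSM. Of 7 germ line markers, 5 were called lower than in -LIF-ESCs in both LIF-ESCs and OSM-ESCs, namely Dazl, Dppa3, Mael, Rec8 and Tex101, which are named after their values were seen, and none was called higher. The other 2 were not lower: Sycp3, a synaptonemal complex gene, had log2 fold changes of 0.65 with LIF and 0.46 with OSM (adjusted p = 0.0034 and 0.0127), and the germ cell helicase gene Ddx4 of 0.36 and 0.13 (adjusted p = 0.0202 and 0.292). Rec8, which encodes a meiotic cohesin and is itself known to respond to retinoic acid, was at 20.8 and 21.5 TPM in -LIF-ESCs, 9.70 and 9.82 TPM in LIF-ESCs and 8.70 and 8.60 TPM in OSM-ESCs, with log2 fold changes of -1.04 and -1.20 (adjusted p = 4.8e-05 and 3.1e-05). Dazl, an RNA-binding protein gene of germ cells, was at 13.0 and 13.1, 3.19 and 3.43, and 2.12 and 2.89 TPM in the same order, with log2 fold changes of -1.70 and -2.01 (adjusted p = 0.00015 and 8.3e-05). Tex101, one of the 5 called lower, passed the filter only through -LIF-ESCs, where it is highest. The summed TPM of the 7 markers was 227 and 243 without cytokine, 143 and 146 with LIF and 144 and 124 with OSM.

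Counts of called markers are to be read against all tested genes, of which 13.3% were called higher and 8.09% lower with LIF. With OSM these shares were 14.2% and 7.86%. Of the remaining marker lists, primed epiblast markers had 4 of 7 called lower and none higher in both comparisons, with summed values of 465 to 467 TPM in -LIF-ESCs against 287 to 316 TPM in the other libraries. Neural markers summed to 62.2 and 64.4 TPM in -LIF-ESCs and to between 93.4 and 106 TPM elsewhere, with 3 called higher and 1 lower with LIF and 4 higher with OSM. The 1 lower was Nes, the neural progenitor filament gene, at 31.3 and 31.9 TPM in -LIF-ESCs and 12.6 to 17.5 TPM in the other libraries (log2 fold change with LIF -1.26, adjusted p = 2.2e-05). Markers of primitive and parietal endoderm summed to between 334 and 366 TPM in all 6 libraries, a sum mostly made up by Sparc (216 to 318 TPM). Of their 10 tested genes, 6 were called higher with LIF and 4 with OSM than without cytokine, among them Gata4, Gata6, Sox7 and Lama1 in both. Cubn, which passed the filter only through LIF-ESCs, was called lower with OSM than with LIF, as were 0.0485% of all tested genes. Of 8 stem cell markers, 3 were called higher and none lower with either cytokine, and Nanog fell short of the fold threshold with log2 fold changes of -0.58 and -0.73 (adjusted p = 0.00014 and 6.4e-05). Genes named here were picked after their values were seen.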
